A study of Mus musculus with 2 samples.

Results

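The genes that have been tied to tolerance were followed through every cell class of this lung data set: Aldh1a2, Il4i1, Ido1, Rara and Tgfb1. They were taken by symbol, and all 5 had a row among the 31053 gene rows of the 6 count matrices. Female C57BL/6J mice formed 3 groups. Lungs of 8 animals were pooled, and the paper does not say whether this number holds for each group. The allergen-naive control group received Alum without ovalbumin (OVA) i.p. and saline i.n., the asthma group received OVA with Alum i.p. followed by OVA challenges i.n., and the tolerance group inhaled OVA before it went through the same asthma protocol. Dendritic cells (DCs, MHC-II high and CD11c high within the MerTK, CD64 and Ly6C negative cells) and macrophages were sorted, the 3 pools were marked with hashtag antibodies, and the mixture was run on 2 10x lanes. Each treatment is therefore 1 pool of cells read in 2 technical lanes, so that treatments were described without a test, whereas cell classes were compared over the 3 pools.

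The 10901 barcodes were reduced to 9878 cells by limits on mitochondrial share, UMIs (distinct RNA molecules) and genes per cell and by removal of likely doublets. Median depth was 4479.5 to 6636 UMIs per cell over the 6 matrices, and the libraries shared 0 cell barcodes. Cells were sorted into classes by UMIs of marker genes that exclude the 5 genes. Mature DCs held both Fscn1, an actin-bundling protein, and Ccr7, the receptor for homing to lymph nodes, and they numbered 28, 158 and 56 cells in the control, asthma and tolerance pools. Conventional type 1 DCs (cDC1) numbered 70, 109 and 71 cells, type 2 DCs (cDC2) 136, 541 and 319, interstitial macrophages 64, 395 and 529, and alveolar macrophages 2296, 1279 and 621. No gate took 2269 cells. Among markers that the gates did not use, 5 of 5 for mature DCs, 4 of 4 for cDC1, 4 of 4 for interstitial macrophages and 4 of 5 for alveolar macrophages were highest in their own class. For cDC2 the count was 0 of 4, since Sirpa, Itgam, Clec4a2 and Cd33 were higher in a macrophage class. In unsupervised clusters 192 of the 996 cDC2 cells lay in clusters named for interstitial macrophages, and 228 of the 242 mature DCs lay in the mature DC cluster. The clusters were named by detection of the gate genes, with added markers for other cell types. A match between gate and cluster name is therefore not independent of the gates.

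Aldh1a2 encodes retinaldehyde dehydrogenase 2, which makes retinoic acid from retinal, and DCs that express it can favour regulatory T cells. Rara encodes a nuclear receptor for retinoic acid. Il4i1 encodes a secreted amino acid oxidase that acts on phenylalanine and tryptophan, and Ido1 encodes an enzyme that starts the breakdown of tryptophan to kynurenine. Both yield ligands of the aryl hydrocarbon receptor and can hold back T cells. Tgfb1 encodes the cytokine TGF-beta 1, which is secreted in a latent form and activated by integrins.

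On the GRCm38 build with GENCODE M21 annotation, Aldh1a2 spans chr9:71215789-71296243, Il4i1 chr7:44816387-44840809, Rara chr11:98927818-98974942 and Tgfb1 chr7:25687002-25705077 on the plus strand, and Ido1 spans chr8:24584136-24597009 on the minus strand. Exons of Il4i1 overlap those of Nup62 on the same strand over 97 bases, with 0 of them in the last 1 kb, and those of Tbc1d17 on the opposite strand over 3423 bases, the last 1 kb of Il4i1 included. The study ran Cell Ranger with default settings, which count reads in the sense direction of a gene, so that Tbc1d17, with 940 UMIs in the 5 classes, is kept apart from Il4i1 by strand. RefSeq promoter windows were found for 4 of the 5 genes. The RefSeq start of Aldh1a2 is the start of the annotated gene, whereas that of Il4i1, at 44836288, lies 19901 bases inside the annotated span, and the windows of Rara also lie inside its span. The 250 bases before the RefSeq start are shown for the 2 of these genes that were highest in the mature DC class. They are given on the plus strand of GRCm38.p6, from chr9:71215539-71215788 for Aldh1a2 and chr7:44836038-44836287 for Il4i1.
Aldh1a2: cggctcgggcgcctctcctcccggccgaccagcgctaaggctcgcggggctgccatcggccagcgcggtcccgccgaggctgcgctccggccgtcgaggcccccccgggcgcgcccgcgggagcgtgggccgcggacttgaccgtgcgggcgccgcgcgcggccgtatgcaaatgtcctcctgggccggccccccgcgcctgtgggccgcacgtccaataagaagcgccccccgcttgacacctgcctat
Il4i1: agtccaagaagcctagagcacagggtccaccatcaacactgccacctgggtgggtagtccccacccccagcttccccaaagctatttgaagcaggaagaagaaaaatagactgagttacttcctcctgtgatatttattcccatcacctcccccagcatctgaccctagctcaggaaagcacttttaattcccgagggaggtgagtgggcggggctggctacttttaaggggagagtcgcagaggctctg
Both runs are in lower case because no searched motif fell in them. The searched letters, on both strands, were AGGTCA (a nuclear receptor site), GGAANTTCC (NF-kB-like), TTCNNNGAA (the GAS motif) and GAAANNGAA (a core of the ISRE), in windows that ran from 250 bases before to 50 bases after the start. Of 32851 windows in the table, 16.3% held AGGTCA, 0.928% GGAANTTCC, 8.3% TTCNNNGAA and 8.56% GAAANNGAA. Tgfb1 had no match either, and among the 4 windows of Rara 1 held TTCNNNGAA at -197 and 1 held AGGTCA at 34 from its start. The upstream runs differ in base composition, with 77.6% G or C for Aldh1a2 and 53.2% for Il4i1.

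Aldh1a2 was a gene of mature DCs. Its level, in CPM (the usual scaling of UMIs by the total UMIs of a class), was 100.2 in the control pool, 443 in the asthma pool and 487 in the tolerance pool of mature DCs. Counting error gave 95% exact Poisson intervals of 51.8 to 175, 401 to 488 and 417 to 565, so that the control pool lay below both others. In cDC1 the gene was at 2.33, 9.36 and 3.08 CPM in the same order of pools, from 1, 8 and 2 UMIs. In cDC2 it was at 15.2, 26.3 and 10.2 CPM, in interstitial macrophages at 15.8, 16.1 and 6.01, and in alveolar macrophages at 1.67, 2.77 and 3.32. Every pool of mature DCs was thus above every pool of the other 4 classes. The mature DCs were 2.45% of all cells and held 54.5% of the 1090 Aldh1a2 UMIs, followed by cells in no gate with 18.7% and cDC2 with 13.5%.

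**Figure D1:**
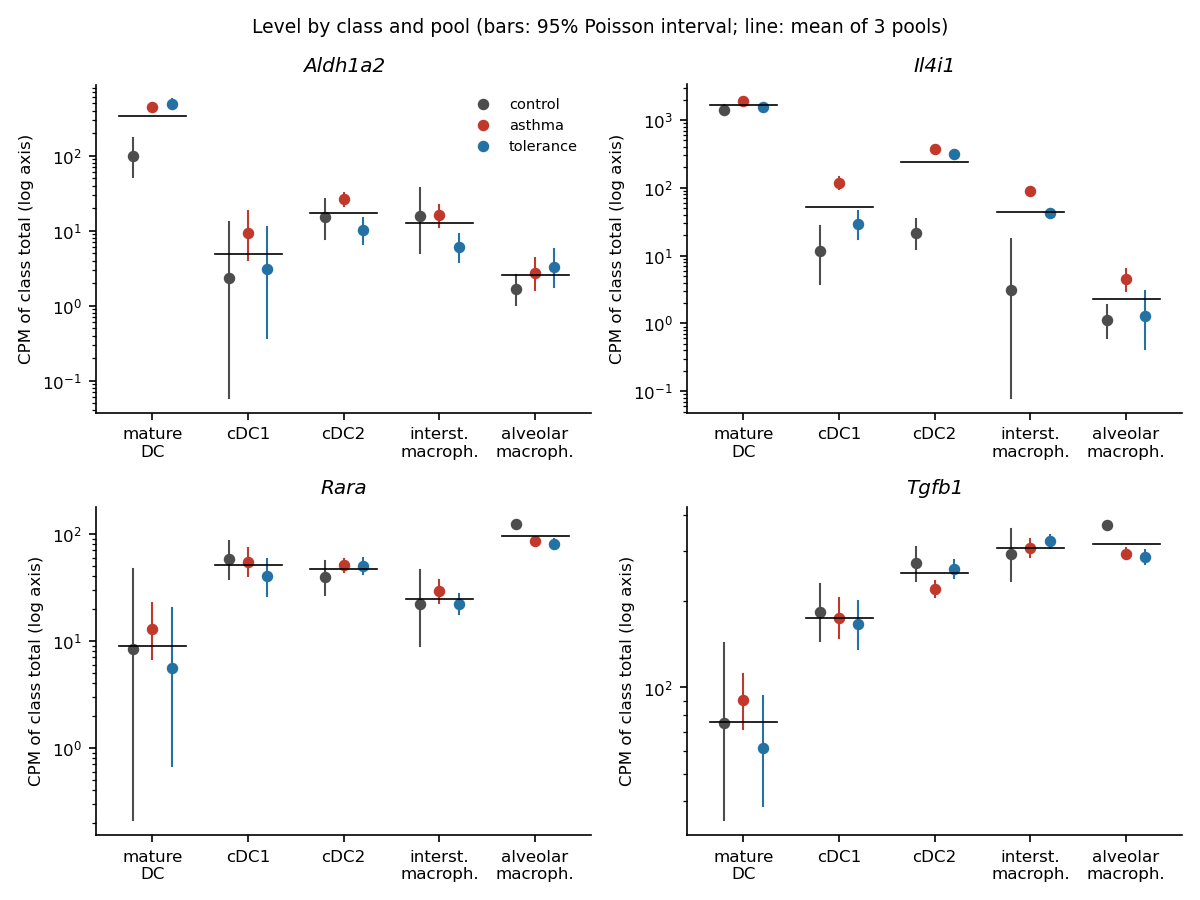
Levels of Aldh1a2, Il4i1, Rara and Tgfb1 in CPM on a log axis, by cell class and treatment pool, with 95% Poisson intervals that cover counting error only and a line at the mean of 3 pools. The mature DC pools stand highest for Aldh1a2 and Il4i1 and lowest for Rara and Tgfb1.

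The share of mature DCs with an Aldh1a2 UMI was 28.6% in the control pool (exact binomial interval 13.2 to 48.7%), 49.4% in the asthma pool (41.3 to 57.4%) and 57.1% in the tolerance pool (43.2 to 70.3%). Cells with at least 2000 UMIs were also thinned to 2000 UMIs each, which removes the difference in depth among them, and shallower cells were left out. This kept 25, 151 and 54 mature DCs in the same order of pools, with shares of 20%, 33.8% and 35.2%. T cells, which should lack the gene, had 0 UMIs in 163 cells, which allows a share of up to 1.84%, at a median of 2270 UMIs per cell against 5529 in mature DCs. The shares in cDC1 were 1.43 to 6.42% and in alveolar macrophages 0.871 to 2.09%, against 6.58 to 13.7% in cDC2. Expression was uneven within the class. Cells with the gene held a median of 2 UMIs and at most 37, and the 10% of mature DCs richest in the gene carried 63.6% of its UMIs there. The lanes differed, with 559 CPM (495 to 629) in lane 1 and 307 CPM (256 to 364) in lane 2 of the asthma pool, so that the Poisson intervals, which cover counting error only, are too narrow. The tolerance pool gave 560.0 and 417 CPM and the control pool 54.3 and 139 CPM, so that both lanes of the control pool stayed under both lanes of the other pools.

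Tests between classes used edgeR's quasi-likelihood test on summed UMIs with the pool as a block, and p-values were adjusted over all 8730 genes by Benjamini-Hochberg. These pools hold different treatments. The block takes out a shift shared by all classes, so the residual spread includes any effect of treatment that differs between classes. Mature DCs exceeded cDC1 in Aldh1a2 by a log2 fold change of 6.30 (SE 0.46, adjusted p = 6.61e-09), with means of 343 ± 212 and 4.92 ± 3.86 CPM (SD, n = 3 pools), and this comparison called 37.2% of all genes. The fold change against cDC1, where the gene had few UMIs, ranged from 5.59 to 7.47 over 15 settings of the fit. Against cDC2, at 17.2 ± 8.28 CPM, the log2 fold change was 4.73 (SE 0.32, adjusted p = 1.38e-09), where 42.5% of genes were called. It was 5.57 (SE 0.35, adjusted p = 4.26e-10) against interstitial macrophages and 7.41 (SE 0.37, adjusted p = 6.03e-12) against alveolar macrophages, with 46.4% and 54.9% of genes called. All 3 pools had the same direction in these 4 comparisons. Below the mature DCs the order was less firm. Aldh1a2 was higher in interstitial than in alveolar macrophages (log2 fold change 1.84, SE 0.48, adjusted p = 0.00476, with 40.7% of genes called), but not past the threshold without the asthma pool (1.29, adjusted p = 0.227). The difference between cDC1 and cDC2 was -1.56 (SE 0.65, adjusted p = 0.128), in a comparison that called 15% of genes.

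**Figure D2:**
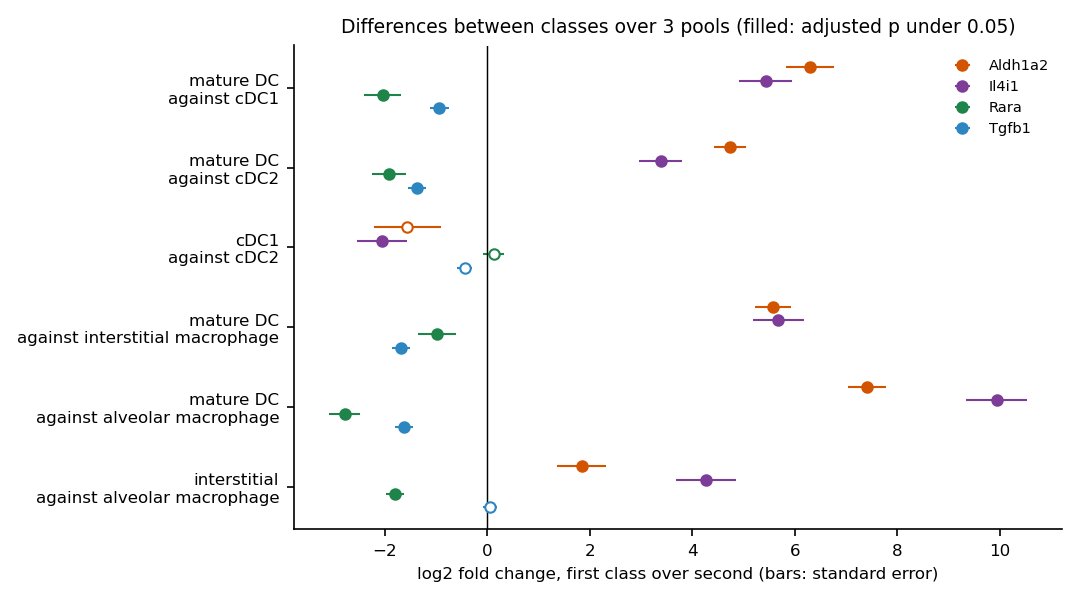
Log2 fold changes of 4 genes in 6 comparisons of classes over 3 pools, with standard errors, where filled points passed an adjusted p of 0.05. Aldh1a2 and Il4i1 lie on the positive side and Rara and Tgfb1 on the negative side in all 4 comparisons of mature DCs with another class.

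Il4i1 was found in most mature DCs. Its level there was 1411 CPM in the control pool (1207 to 1641), 1923.5 in the asthma pool (1835 to 2015) and 1584 in the tolerance pool (1456 to 1720). The pools lay close together, and the lanes ranged from 1231 to 2068 CPM. A UMI was found in 78.6%, 92.4% and 85.7% of mature DCs, or in 80%, 84.1% and 72.2% of cells thinned to 2000 UMIs. T cells had 0 UMIs of Il4i1 in 163 cells, with the same upper limit of 1.84%. In cDC2 the level differed strongly between pools, at 21.5 CPM in the control pool, 379 in the asthma pool and 318 in the tolerance pool. Interstitial macrophages followed the same order of pools at 3.15, 88.7 and 42.3 CPM, where the control value was 1 UMI. In cDC1 the values were 11.6, 118 and 29.3 CPM, but they rested on lane 1 with 14.7, 275 and 57.7 CPM, and in lane 2 the pools were at 6.35, 6.02 and 8.07 CPM with at most 3 UMIs each. Alveolar macrophages were at 1.11, 4.46 and 1.28 CPM. B cells, which are also known to express the gene, were at 18.4, 88.8 and 33.8 CPM. Because cDC2 were more numerous, they held 35.1% of the 6894 Il4i1 UMIs, close to the 36.4% in mature DCs.

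The 3 pools of mature DCs were above those of every other class, and the difference passed the test each time. The log2 fold change was 5.43 against cDC1 (SE 0.51, adjusted p = 1.63e-07), 3.38 against cDC2 (SE 0.43, adjusted p = 4.46e-06), 5.68 against interstitial macrophages (SE 0.50, adjusted p = 3.86e-08) and 9.94 against alveolar macrophages (SE 0.59, adjusted p = 8.18e-11). The size against cDC1 depended on the lane, at 4.16 in lane 1 and 8.42 in lane 2, and was 8.58 with stricter gates. That setting held more cDC1 than the main gates, at 74, 126 and 81 cells in the control, asthma and tolerance pools. The size against cDC2 depended on the pool, as it was 2.59 without the control pool and 4.08 without the tolerance pool. Il4i1 was lower in cDC1 than in cDC2 by -2.05 (SE 0.49, adjusted p = 0.00689), a call that was lost without the tolerance pool (-1.31, adjusted p = 0.225), in lane 1 alone (-1.16, adjusted p = 0.0917) and without the pool as a block (-2.02, adjusted p = 0.151). It was higher in interstitial than in alveolar macrophages by 4.26 (SE 0.58, adjusted p = 7.62e-06).

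**Figure D3:**
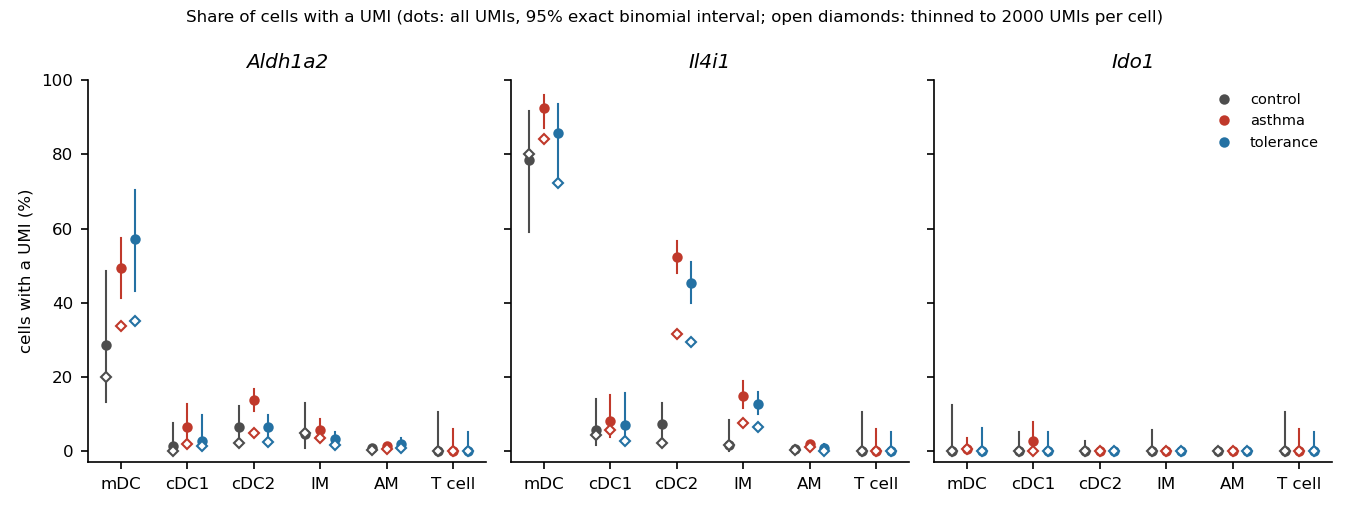
Share of cells with a UMI of Aldh1a2, Il4i1 and Ido1 by class (mDC mature DC, IM interstitial and AM alveolar macrophages) and pool, with 95% exact binomial intervals, and open diamonds for cells thinned to 2000 UMIs. Il4i1 reaches 45.5 to 52.3% of cDC2 in the asthma and tolerance pools against 7.35% in the control pool, and Ido1 stays near 0 in every class.

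Part of the Il4i1 signal outside the mature DC gate lay in cells that held 1 of the 2 gate genes, Fscn1 or Ccr7. In cDC1 of the asthma pool, 8 such cells carried 93 Il4i1 UMIs, at 1585 CPM, and these UMIs lay in 4 of the cells. All other cDC1 of that pool carried 8 UMIs, at 10.0 CPM (4.34 to 19.8). In cDC2 the 82 cells with 1 of the genes were at 949 CPM over all pools and the 914 cells with neither at 254.5 CPM. Among cDC2 with neither gene the pools still stood at 14.6 CPM in the control pool, 305 in the asthma pool and 253 in the tolerance pool. When cells with any Fscn1 or Ccr7 UMI were left out of the other classes, an alternative chosen after the data were seen, the log2 fold change of Il4i1 rose from 5.43 to 8.09 between mature DCs and cDC1 (adjusted p = 9.41e-09) and was -4.46 between cDC1 and cDC2 (adjusted p = 0.000104), while that between mature DCs and cDC2 was 3.63. Among cDC2 of the asthma pool, cells with a UMI of Cd209d, a lectin that was also a gate gene, were at 586 CPM and those without at 268 CPM. In the tolerance pool the values were 567 and 216 CPM, whereas in the control pool they were 18.3 and 21.99 CPM with 2 and 15 UMIs.

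For Aldh1a2 the same split gave a different picture. The 82 cDC2 with 1 of Fscn1 and Ccr7 held 11 UMIs, or 15.4 CPM (7.67 to 27.5), and the 914 with neither 136 UMIs, or 19.9 CPM (16.7 to 23.5). Of the cells in no gate, 66 in the asthma pool held 1 of Fscn1 and Ccr7 and were at 398 CPM of Aldh1a2 (332 to 472) in 21 cells, near the level of mature DCs. The 39 such cells of the tolerance pool were at 12.4 CPM (2.57 to 36.4), with 3 UMIs, although their Il4i1 level was 498 CPM.

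**Figure D4:**
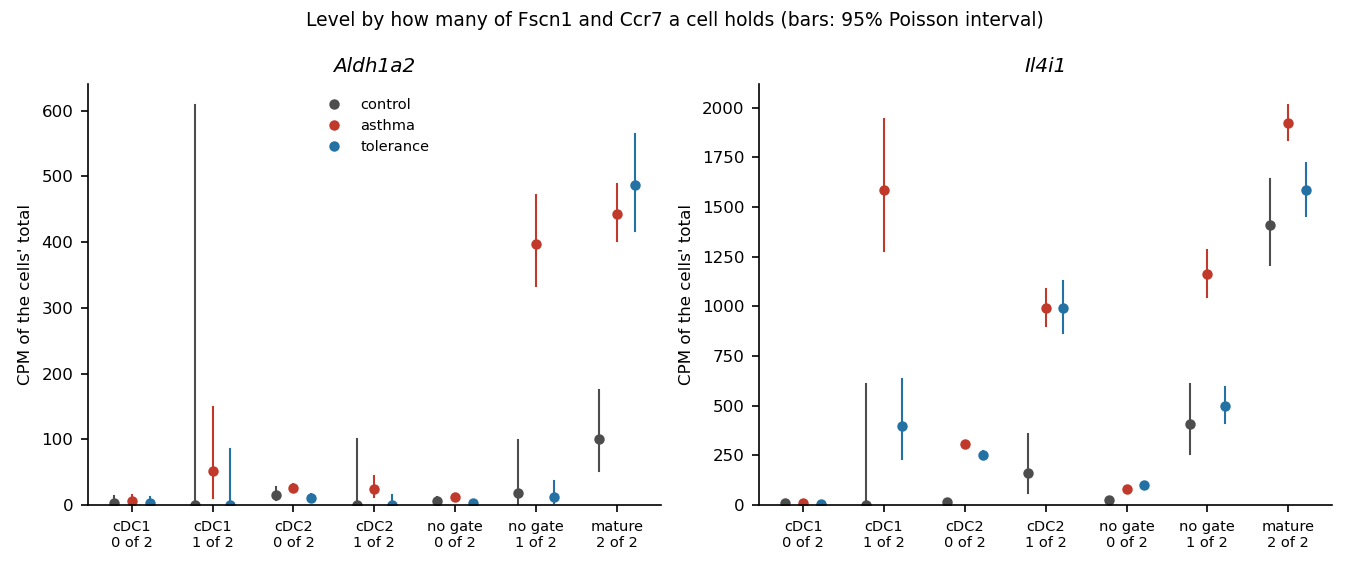
Levels of Aldh1a2 and Il4i1 in CPM on linear axes, in cells split by how many of Fscn1 and Ccr7 they held, by pool, with 95% Poisson intervals. Il4i1 is higher with 1 of the genes than with neither in cDC2 and ungated cells of every pool, whereas Aldh1a2 is high only in mature DCs and in the ungated asthma cells with 1 of them.

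In mature DCs Aldh1a2 and Il4i1 were often found in the same cells, but Aldh1a2 was not more frequent in cells with Il4i1. Both were found in 103 of 242 cells, Il4i1 alone in 113, Aldh1a2 alone in 15 and neither in 11. Of the cells with Aldh1a2, 87.3% also held Il4i1, and of the 216 cells with Il4i1 47.7% held Aldh1a2, against 57.7% of the 26 cells without it. In the control, asthma and tolerance pools these shares were 27.3% against 33.3%, 48.6% against 58.3% and 54.2% against 75%, with 6, 12 and 8 cells without Il4i1. Mature DCs were further divided by their UMIs of cDC1 genes (such as Irf8) against cDC2 genes (such as Sirpa), giving 150 cDC1-leaning cells, 47 cDC2-leaning cells and 45 ties, with 102 cells within 1 UMI of the limit. Aldh1a2 was at 93.9, 550.2 and 601 CPM in the cDC1-leaning cells of the control, asthma and tolerance pools and at 89.6, 296 and 264 CPM in the cDC2-leaning cells. This difference of 0.93 on the log2 scale (SE 0.28) did not pass the test (adjusted p = 0.0754 over 2105 genes, of which 4.42% were called). Il4i1 tended the other way, at 1514, 1779 and 1295 CPM in cDC1-leaning and 1568, 2320 and 2738 CPM in cDC2-leaning cells, with a log2 fold change of -0.56 (SE 0.21, adjusted p = 0.157).

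Ido1 was close to absent. Only 10 UMIs in 9 of the 9878 cells carried the gene, and it fell below the filter for testing. In the asthma pool 3 cDC1 held 4 UMIs (4.68 CPM, 1.27 to 12.0) and 1 mature DC held 1 UMI. The 996 cDC2, the 988 interstitial macrophages and the 4196 alveolar macrophages had none, which allows shares of cells with a UMI of up to 0.301%, 0.304% and 0.0715%. In mature DCs of the control pool, with 28 cells, 0 detections allow a share of up to 10.7%, so that a low level there was not detectable at this depth. The remaining 5 UMIs lay in cells with no gate or with markers of more than 1 class. Its share in cDC1 of the asthma pool was 2.75% (0.571 to 7.83%), and T cells had 0 of 163 cells, which allows up to 1.84%.

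Rara ran opposite to Aldh1a2. Mature DCs had 15 UMIs in all, at 8.35, 13.0 and 5.60 CPM in the control, asthma and tolerance pools. In cDC1 the receptor was at 58.2, 55.0 and 40.1 CPM, in cDC2 at 39.2, 50.7 and 50.1, in interstitial macrophages at 22.1, 29.2 and 22.03, and in alveolar macrophages at 123, 85.3 and 80.1. The alveolar macrophages held 62.2% of all Rara UMIs, and no pool of mature DCs reached any pool of the other 4 classes. Rara was lower in mature DCs than in cDC1 by -2.04 (SE 0.36, adjusted p = 0.00021), than in cDC2 by -1.92 (SE 0.34, adjusted p = 0.000155) and than in alveolar macrophages by -2.79 (SE 0.31, adjusted p = 3.86e-07). The difference from interstitial macrophages of -0.98 (SE 0.37, adjusted p = 0.0376) was near the threshold and was lost in 6 of 14 alternatives, among them the fits without the asthma pool (adjusted p = 0.102), without the tolerance pool (adjusted p = 0.157) and in either lane alone. Interstitial macrophages were lower than alveolar macrophages by -1.80 (SE 0.18, adjusted p = 1.16e-07), while cDC1 and cDC2 did not differ past the threshold (0.12, SE 0.20, adjusted p = 0.859).

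Tgfb1 was found in every class and was lowest in mature DCs. The control, asthma and tolerance pools of mature DCs were at 75.2, 90.1 and 61.6 CPM. Those of cDC1 were at 184, 175 and 166, of cDC2 at 272, 222 and 260, of interstitial macrophages at 293, 308 and 324, and of alveolar macrophages at 369.5, 294 and 287 CPM. The order of classes was therefore mature DCs, cDC1, cDC2 and the macrophages, and with lanes added the groups overlapped only between the macrophage classes. In single lanes cDC2 also overlapped the macrophages. The control pool of cDC2 was at 286 CPM in lane 2. In lane 1 alveolar macrophages of the tolerance pool were at 275 CPM and interstitial macrophages of the asthma pool at 279 CPM. Mature DCs were lower than cDC1 by -0.94 (SE 0.19, adjusted p = 0.000668), than cDC2 by -1.38 (SE 0.18, adjusted p = 5.67e-06), than interstitial macrophages by -1.68 (SE 0.18, adjusted p = 3.91e-07) and than alveolar macrophages by -1.63 (SE 0.18, adjusted p = 2.84e-07). The step from cDC1 to cDC2 (-0.44, SE 0.15, adjusted p = 0.0537) missed the threshold but passed it with DESeq2 (adjusted p = 0.0209), with RLE size factors (adjusted p = 0.0446) and with stricter gates (adjusted p = 0.045). The macrophage classes did not differ past it (0.05, SE 0.14, adjusted p = 0.784). In T cells Tgfb1 was at 268, 122 and 106 CPM, from 22, 20 and 20 UMIs. The lanes differed, with 75.9, 70.4 and 75.7 CPM in lane 1 and 360, 177 and 135 CPM in lane 2. The lane 1 values lay within the range of the mature DC pools.

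Treatments were set side by side within classes, with ratios of CPM whose intervals cover counting error only and are too narrow, since UMIs of 1 cell are not independent. In mature DCs Aldh1a2 was 4.42 times higher in the asthma than in the control pool (2.50 to 8.62) and 4.86 times higher in the tolerance than in the control pool (2.71 to 9.59). The lanes differed in size, with ratios of 10.3 (3.49 to 50.2) in lane 1 and 2.20 (1.12 to 4.91) in lane 2 for asthma, and of 10.3 (3.43 to 50.8) and 2.99 (1.49 to 6.78) for tolerance, so that a ratio of 4 was not reached in lane 2. Over both lanes, ratios of 4 or more in this direction were seen in 2.73% of 2749 genes with at least 50 UMIs for asthma and in 2.06% of 1309 genes for tolerance. The ratio of tolerance to asthma was 1.10 (0.915 to 1.32), and 1.00 and 1.36 in the lanes. The control value rests on 12 UMIs in 8 of 28 cells. Its mature DCs were shallower, with a median of 4175 UMIs per cell against 5552 and 6280, but their levels of the gate genes were higher, at 3591 CPM of Fscn1 and 4660 CPM of Ccr7 against 1942 and 2863.5 in the asthma pool and 2015 and 3193 in the tolerance pool. The 5 listed markers of alveolar macrophages summed to 351, 696 and 437 CPM in these cells, of which Fabp4 was at 117, 493 and 249 CPM. Fabp4 was the listed marker that was highest in mature DCs and not in alveolar macrophages. Aldh1a2 was at no more than 3.32 CPM in alveolar macrophages, and whether RNA of other classes adds to the mature DC values was not tested. Il4i1 in mature DCs was 1.36 times (1.16 to 1.61) and 1.12 times (0.944 to 1.34) the control level in the asthma and tolerance pools.

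In cDC2 the pattern was the reverse, with little change of Aldh1a2 and a large one of Il4i1. Il4i1 was 17.7 times higher in the asthma than in the control pool (11.0 to 30.4) and 14.8 times higher in the tolerance than in the control pool (9.19 to 25.5). Such ratios of 4 or more were seen in 1.5% of 7353 genes for asthma and in 1.17% of 6491 genes for tolerance. Both lanes showed it, with 387 and 373 CPM in the asthma pool, 390.5 and 264 CPM in the tolerance pool, and 18.0 and 24.0 CPM in the control pool. The share of cDC2 with a UMI was 7.35%, 52.3% and 45.5% in the control, asthma and tolerance pools, and 2.29%, 31.6% and 29.5% after thinning. Ccr7 moved with it, at 7.58, 71.2 and 24.8 CPM, as did the 5 alveolar macrophage markers, at 479, 1107 and 987 CPM. In cDC2 with neither Fscn1 nor Ccr7 the pools were at the 14.6, 305 and 253 CPM given above, and alveolar macrophages had at most 4.46 CPM of Il4i1. Whether cells or RNA of other classes add to the cDC2 values was not tested. Aldh1a2 in cDC2 was 1.74 times the control level in the asthma pool (0.954 to 3.47) and 0.670 times in the tolerance pool (0.328 to 1.45). Here tolerance lay below asthma, at 0.386 times its level (0.243 to 0.593), with 0.305 times in lane 1 and 0.520 times in lane 2. In interstitial macrophages the ratio was 0.374 (0.215 to 0.640), but it came from lane 1 with 0.239 (0.111 to 0.484), against 0.806 (0.312 to 2.17) in lane 2.

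Rara and Tgfb1 varied less between treatments. In alveolar macrophages Rara was 0.691 times (0.626 to 0.762) and 0.649 times (0.573 to 0.733) the control level in the asthma and tolerance pools, and in both lanes the control values of 130.1 and 118 CPM exceeded the 76.8 to 94.1 CPM of the other pools. Tgfb1 in the same cells was 0.795 times (0.754 to 0.839) and 0.776 times (0.726 to 0.828) the control level, with lanes of 368 and 371 CPM in the control pool against 275 to 299.7 CPM in the others. In interstitial macrophages the ratios of Tgfb1 were 1.05 (0.846 to 1.32) and 1.11 (0.897 to 1.38).

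The genes closest in pattern were sought among the 8730 tested genes by Pearson's r of log2(CPM + 1) over the 15 sums of class and pool, which share cells of the same pools and are given as a description. For Il4i1 they were Nfkb2 (r = 0.962), a subunit of non-canonical NF-kB, Ramp3 (0.954), Jak2 (0.946), a kinase of cytokine receptors, Yif1b (0.945) and Csrp1 (0.943). For Aldh1a2 they were Alpk2 (0.953), Bmp2k (0.952), Ktn1 (0.933), Fbxo11 (0.931) and Polr3c (0.927). Rara was closest to Tmed5 (0.961), Map2k3 (0.954), Fbxl14 (0.944), Trib1 (0.941) and Tmem245 (0.937), and Tgfb1 to Slc43a2 (0.978), Cd68 (0.974), Ptprc (0.969), Cpd (0.968) and Arhgap39 (0.968). None of the 20 was a gate gene.

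Other genes of the retinoid pathway did not follow Aldh1a2 as a group. Of 24 listed genes 8 were tested. Between mature DCs and cDC1, 3 were higher, 2 lower and 3 did not pass, with a median log2 fold change of 0.28 against -0.03 over all genes, and against cDC2 2 were higher and 2 lower (median 0.14 against -0.06), in comparisons that called 37.2% and 42.5% of all genes. Fabp5, a fatty acid binding protein that can carry retinoic acid to the nucleus, was higher in mature DCs than in cDC1 by 5.91 (SE 0.59, adjusted p = 3.24e-07) and than in cDC2 by 3.61 (SE 0.50, adjusted p = 1.34e-05). Its control, asthma and tolerance pools of mature DCs were at 1929, 8728 and 6906.5 CPM, the same order of control below the others as for Aldh1a2. Dhrs3, which reduces retinal back to retinol, was higher in mature DCs than in cDC2 by 0.97 (SE 0.26, adjusted p = 0.00577) and lower than in interstitial macrophages by -1.34 (SE 0.23, adjusted p = 0.000128). Rarg, another retinoic acid receptor, was at 27.8 ± 9.94 CPM in mature DCs and 3.89 ± 3.56 in cDC1 (log2 fold change 2.88, SE 0.59, adjusted p = 0.000787). Rxra, the shared partner of these receptors, had 3 UMIs in all mature DCs, against 19.5 ± 0.768 CPM in cDC1 and 119 ± 9.48 in alveolar macrophages. Dhrs9, a retinol dehydrogenase, had 1 UMI in mature DCs and 24.7 ± 2.15 CPM in cDC1. Against interstitial macrophages 1 listed gene was higher and 3 lower, and against alveolar macrophages 2 were higher and 2 lower. The medians were 0.04 and 0.45 against -0.11 and -0.12 over all genes, of which 46.4% and 54.9% were called. In the leaning comparison Fabp5 was the single gene tested and was lower in cDC1-leaning cells by -0.75 (SE 0.20, adjusted p = 0.0457).

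Of 21 genes of tryptophan breakdown and the aryl hydrocarbon receptor, 11 were tested. Mature DCs had 2 higher and 3 lower than cDC1 and 2 higher and 2 lower than cDC2. The medians were 0.19 and 0.12 against -0.03 and -0.06 over all genes, of which 37.2% and 42.5% were called. Against either macrophage class 6 were higher and 2 lower in mature DCs. The medians there were 0.71 and 0.67 against -0.11 and -0.12 over all genes, of which 46.4% and 54.9% were called. Slc7a11, the cystine importer, was higher in mature DCs than in cDC1 by 5.08 (SE 0.50, adjusted p = 2.62e-07) and than in cDC2 by 3.54 (SE 0.34, adjusted p = 1.31e-07), at 50.1, 252 and 207 CPM in the control, asthma and tolerance pools. Kynu, which cleaves kynurenine, was higher than in cDC1 by 1.64 (SE 0.34, adjusted p = 0.000836). Kmo, which hydroxylates kynurenine, was lower in mature DCs than in cDC2 by -2.77 (SE 0.26, adjusted p = 1.02e-07), at 15.8 ± 13.7 against 159 ± 58.3 CPM. Ahr, the receptor itself, was highest in cDC1 at 270 ± 61.6 CPM, and mature DCs at 63.2 ± 11.8 CPM were lower by -2.15 (SE 0.36, adjusted p = 0.000107). Tiparp, a target of that receptor, was lower in mature DCs than in cDC2 by -1.62 (SE 0.30, adjusted p = 0.000287).

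Of 28 genes of TGF-beta activation and signalling, 19 were tested. Mature DCs had 2 higher and 4 lower than cDC1, 4 higher and 6 lower than cDC2, 5 higher and 10 lower than interstitial macrophages, and 9 higher and 5 lower than alveolar macrophages. Over all genes 37.2%, 42.5%, 46.4% and 54.9% were called in these comparisons. The medians of the list were 0.16, -0.42, -1.03 and 0.58, against -0.03, -0.06, -0.11 and -0.12 over all genes. Itgb8, a chain of an integrin that activates latent TGF-beta, had 45 UMIs in mature DCs, 7 in cDC1, 0 in cDC2, 1 in interstitial and 2 in alveolar macrophages. Its pools in mature DCs were at 66.8, 21.7 and 47.6 CPM. Against cDC2 it was at least 81.0-fold higher when 3 counts are set for the 7548892 UMIs of that class, and it passed the test against all 4 classes (adjusted p = 0.00067 for cDC1 and 9.88e-07 for cDC2). Tgfbi, a matrix protein induced by TGF-beta, was lower in mature DCs than in cDC1 by -3.58 (SE 0.28, adjusted p = 1.36e-08) and than in interstitial macrophages by -5.71 (SE 0.26, adjusted p = 7.07e-12). Tgif1, a repressor in the pathway, was higher than in cDC1 by 1.70 (SE 0.27, adjusted p = 7.43e-05).

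Among 13 further genes linked to tolerance, 9 were tested. In mature DCs 4 were higher and 2 lower than in cDC1 (median 1.88 against -0.03 over all genes). Of the same 9 genes, 5 were higher and 3 lower than in cDC2 (1.22 against -0.06). In the comparisons with interstitial and alveolar macrophages 5 were higher and 4 lower, with medians of 1.82 and 1.33 against -0.11 and -0.12. These comparisons called 37.2%, 42.5%, 46.4% and 54.9% of all genes. Socs2, a suppressor of cytokine signalling, was at 518, 682 and 602 CPM in mature DCs and exceeded cDC1 by 6.30 (SE 0.38, adjusted p = 6.53e-10). Cd200, whose receptor restrains myeloid cells, was at 159, 329 and 330.2 CPM and exceeded cDC2 by 6.34 (SE 0.25, adjusted p = 2.91e-12). Cd274, which encodes PD-L1, was at 117, 379 and 333 CPM and exceeded cDC1 by 4.03 (SE 0.34, adjusted p = 3.84e-08) and cDC2 by 3.12 (SE 0.26, adjusted p = 3.28e-08). Entpd1, which encodes CD39, was lower, with 3 UMIs in mature DCs against 64.5 ± 10.0 CPM in cDC1. Arg1, an arginase, belonged to interstitial macrophages, at 3.15, 731 and 404 CPM, with 2 UMIs in mature DCs.

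**Figure D5:**
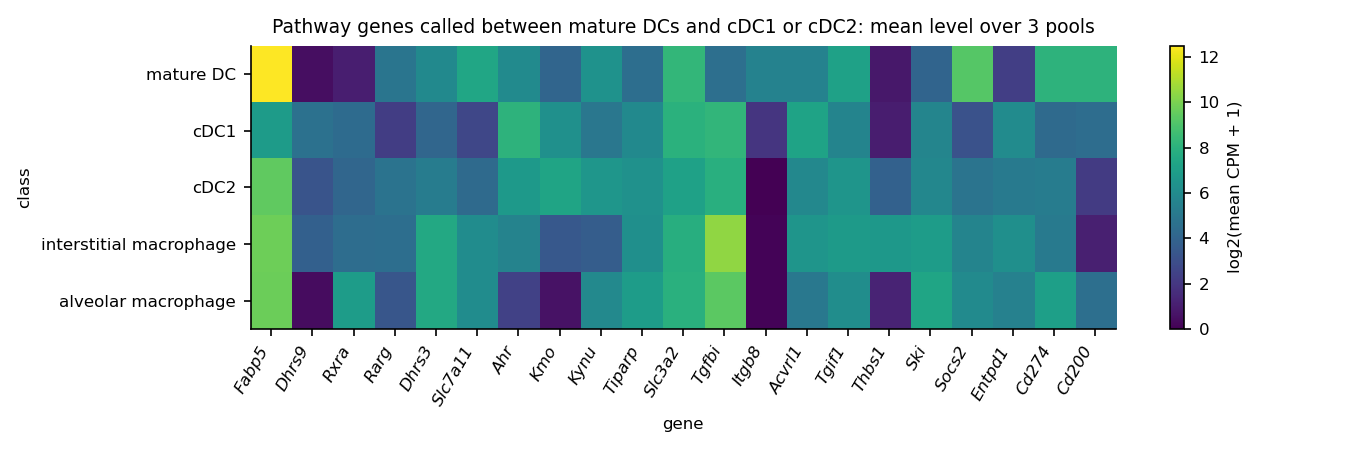
Mean levels over 3 pools as log2(CPM + 1) of the named pathway genes called between mature DCs and cDC1 or cDC2, by class. Fabp5, Slc7a11, Itgb8, Socs2, Cd274 and Cd200 are highest in the mature DC row, and Dhrs9, Rxra, Kmo, Tgfbi and Entpd1 are low there.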

How the data were processed

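The data are UMI counts per gene and cell from Chromium 3′ v3 libraries. The authors made the deposited counts with Cell Ranger 3.1.0 (STAR, mm10 reference) and split the pools by hashtag with Seurat 3.1.5, per the labels. Each of 6 matrices is 1 of 3 treatment pools in 1 of 2 lanes. Limits were set at 20% of UMIs from mitochondrial genes (661 barcodes above it), 20000 UMIs (22 above) and 500 genes (619 below), and a barcode past any of them was dropped. The automatic threshold of Scrublet, run in scanpy 1.11.5, marked 0.0585% and 0.141% of cells in the lanes and had not worked, so that the top 2% of scores per lane were removed (210 cells). Gates asked for a UMI of both Fscn1 and Ccr7 (mature DC), of at least 2 of Xcr1, Clec9a, Tlr3, Cd207, Itgae and Cadm1 (cDC1), of at least 2 of Cd209a, Mgl2, Clec10a, Cd209d and Flt3 with fewer than 2 C1q genes (cDC2), of all of C1qa, C1qb and C1qc (interstitial macrophage), or of at least 3 of Ear1, Krt79, Marco, Siglecf, Cidec, Fabp1 and Atp6v0d2 (alveolar macrophage). The mature gate took precedence over cDC1 and cDC2, and cells in other pairs of gates, or with lymphocyte markers, were left out. Class tests used edgeR 4.0.16 (quasi-likelihood, TMM, filterByExpr, pool as block, 8 residual degrees of freedom) on 15 sums of 119756 to 12567215 UMIs, with DESeq2 1.42.0 as an alternative. The SE is the log2 fold change divided by the root of F. The fit was also run on simulated counts with known changes. These gave all classes a common mean profile and no effect of treatment, unlike the real sums. They do not show how the fit handles such effects.

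Genes and lists were chosen with earlier results of these data known. Named pathway genes are those past an adjusted p of 0.05 with the largest changes, up to 4 per list and comparison. Shares have exact (Clopper-Pearson) and levels exact Poisson 95% intervals, for counting error only, and 0 counts are set to an upper limit of 3. Each pool is 1 mixture of mice, and no source says that the pools are repeats of each other. With the pool as a block, p-values measure how differences between classes vary over pools of different treatments.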

Additional observations from a re-analysis of the deposited data

How the results depend on the processing

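The 4 tested genes gave 368 values under alternatives, of which 348 kept their direction and side of the threshold, 11 lost and 6 gained a call, and 3 changed sign with no call in either fit. These were Rara between cDC1 and cDC2 in lane 2 (-0.01) and Tgfb1 between macrophages with no low-count filter (-0.03) and without the tolerance pool (-0.07). Calls lost were Il4i1 between cDC1 and cDC2 without the pool block (-2.02, adjusted p = 0.151) and in lane 1 (-1.16), Rara between mature DCs and interstitial macrophages in lane 1 (-1.13), lane 2 (-0.90), with doublets kept (-0.92) and with stricter gates (-0.90), and Aldh1a2 between interstitial and alveolar macrophages in lane 2 (1.24). Calls gained were Aldh1a2 between cDC1 and cDC2 with no low-count filter (-1.58) and stricter gates (-2.08), Tgfb1 between them with RLE factors (-0.44), DESeq2 (-0.43) and stricter gates (-0.47), and Il4i1 between leanings in lane 1 (-0.89). Counts of called genes moved by over 1.5 times in lane 1 for mature DCs against cDC1 (2001 from 3245), against cDC2 (2433 from 3713), cDC1 against cDC2 (738 from 1307) and the leanings (58 from 93), in lane 2 for cDC1 against cDC2 (827) and the leanings (9), without the pool block for the same comparisons (801 and 11), and with DESeq2 for the leanings (36). A single lane holds fewer cells, and otherwise the cause was not tested. Leaving out 1 pool gave 1663 to 3431 called genes for mature DCs against cDC1, 1994 to 4043 against cDC2, 2157 to 4553 against interstitial and 3029 to 5368 against alveolar macrophages, 434 to 1537 for cDC1 against cDC2, 1944 to 4573 between macrophages and 7 to 29 between leanings, and -2.73 to -1.31 for Il4i1 between cDC1 and cDC2, -1.59 to -0.86 for Rara between mature DCs and interstitial macrophages and 1.29 to 2.47 for Aldh1a2 between macrophages. The direction of the leanings in Aldh1a2 held in all 13 fits at 0.74 to 1.12. Thinning to 2000 UMIs moved 20 of 25 shares of cells with a UMI by more than their intervals. Depth limits Ido1 most, with 10 UMIs in all cells, followed by Aldh1a2 with 1090.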
